A study of Mus musculus with 28 samples.

Results

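Induced neural stem cells made from embryonic fibroblasts of ICR mice were compared with cells made in the same way from embryonic fibroblasts of Sox2-GFP mice. The comparison used 8 of the 28 messenger RNA libraries of the series. The ICR side held 2 libraries of the line made with B/K/eSox17FNV and 2 of the line made with K/eSox17FNV, written BKF and KF here. The Sox2-GFP side held the 2 libraries of its BKF line and the 2 of its KF line, so the cocktails were balanced. Of 16275 genes tested, the 15479 on the autosomes and in the mitochondrial genome were kept, and genes were followed where the difference had the same sign in both cocktails. The remaining 20 libraries were 12 of other Sox2-GFP induced lines, and 8 of fibroblasts and neural stem cells of Sox2-GFP mice.

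All 4 groups received doxycycline-inducible lentiviruses and a lentivirus for M2rtTA, the doxycycline-dependent activator, and were held in 1 µg/mL doxycycline for 18 days. Colonies were picked at day 20 and expanded on Matrigel in medium with 10 ng/mL each of bFGF and EGF. The labels spell out eSox17FNV, an engineered Sox17, but not B or K, and give no passage for these lines. They do not say whether the libraries of a line came from separate colonies, cultures or animals. The p-values therefore measure the spread between libraries of a group, which may be technical, and strain cannot be told apart from the individual line. That spread was pooled over all 14 groups of the series, fibroblasts and neural stem cells included. The libraries of the neural stem cell group differ in passage. The 8 libraries carried neural stem cell RNA, with a summed value of 12 neural stem cell markers of 122203 to 134692 in ICR and 84236 to 141125 in Sox2-GFP. The sum of 11 fibroblast markers was 877 to 5950 in ICR and 1369 to 1991 in Sox2-GFP, against at least 233958 in the fibroblast libraries. In bulk RNA, fewer cells of a type and less RNA per cell cannot be told apart.

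As background, ICR is an outbred mouse stock, whereas a Sox2-GFP mouse carries a green fluorescent reporter of the neural stem cell factor Sox2. Direct reprogramming turns a fibroblast into a neural stem cell by forced expression of transcription factors, and each picked colony descends from few cells. A line can thus carry its donor's alleles, the chromosome complement of its founder cell, and a regional identity written in Hox and other homeobox genes.

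The ICR and Sox2-GFP lines differed in many genes, but over all genes the sign agreed between the cocktails little more often than it disagreed. Averaged over the cocktails, 6032 genes (39.0% of those tested) passed an adjusted p of 0.05 in limma, the moderated linear model used throughout, with 3058 higher (19.8%) and 2974 lower (19.2%) in ICR. Of the 15479 genes, called or not, 7556 (48.8%) had the same sign in BKF and KF and 7196 (46.5%) had opposite signs. The averaged call together with the same sign was met by 4476 genes (28.9%), of which 2214 (14.3%) were higher and 2262 (14.6%) lower in ICR. A stricter set passed in each cocktail separately with the same sign. It held 1179 genes (7.62%), 599 higher (3.87%) and 580 lower (3.75%), and 341 of them differed at least 2-fold in each cocktail. Another 798 genes (5.16%) passed in each cocktail with opposite signs.

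**Figure D1:**
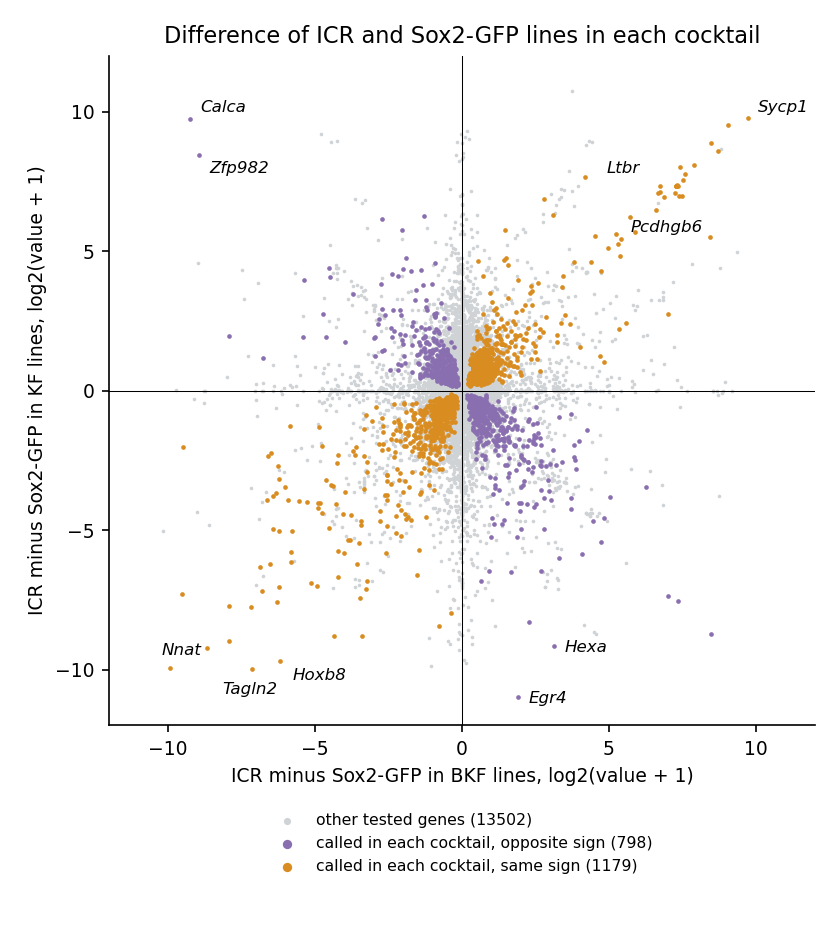
Difference of ICR and Sox2-GFP lines on the log2(value + 1) scale in the BKF lines (horizontal axis) and in the KF lines (vertical axis), 1 point per gene of the 15479 tested. The 1179 genes called in each cocktail with the same sign lie in the lower left and upper right, and the 798 called with opposite signs lie in the other corners.

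When each line was taken as 1 sample, with 2 ICR against 2 Sox2-GFP line means, limma passed 0 genes at an adjusted p of 0.05. With terms for strain and cocktail, 4 means leave little to estimate the spread from. A count of 0 thus does not show that no gene differs. At an unadjusted p under 0.05 that fit had 875 genes (5.65%), and its smallest adjusted p was 0.407. All calls and standard errors below thus rest on the spread between libraries of a group, pooled over the 14 groups, and describe these 4 lines. The differences in BKF and KF had a Pearson r of 0.151 across genes, which are not independent replicates.

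Among the 4 lines compared, the KF line of Sox2-GFP stood apart. Between line means, 4329 genes were at least 2-fold apart for ICR KF and Sox2-GFP KF, and 2264 for ICR BKF and Sox2-GFP BKF. The Sox2-GFP KF and BKF lines were at least 2-fold apart in 3542 genes, while the ICR KF and BKF lines were so in 2167. The 2 libraries of a line were at least 2-fold apart in 911 to 946 genes. Within KF 7028 genes passed (45.4%), against 3142 within BKF (20.3%). Averaged differences draw more on that 1 line than on the others, so values are given for each cocktail below.

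Across the genome, chromosomes 1 and 10 stood out. For each library the median deviation of a chromosome's genes from the middle induced line, the median of the 10 induced lines of the series, was taken on the log2 scale, over genes with a mean of at least 100. On chromosome 1 (657 genes) the ICR libraries lay at 0.33 and 0.32 in BKF and at 0.32 and 0.30 in KF. The 4 Sox2-GFP libraries lay at -0.11 and -0.10 in BKF and at -0.02 in both KF libraries. On chromosome 10 (579 genes) the ICR libraries lay at 0.36 and 0.35 in BKF and at 0.35 and 0.34 in KF, and the Sox2-GFP libraries at -0.05 to -0.02. The ICR and Sox2-GFP libraries did not overlap on either chromosome, and the 16 Sox2-GFP induced libraries together reached at most 0.03. Of the 10 groups behind the middle line, 8 were Sox2-GFP, so that choice in part holds the Sox2-GFP libraries near 0. On the other 17 autosomes the ICR libraries lay between -0.06 and 0.01.

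**Figure D2:**
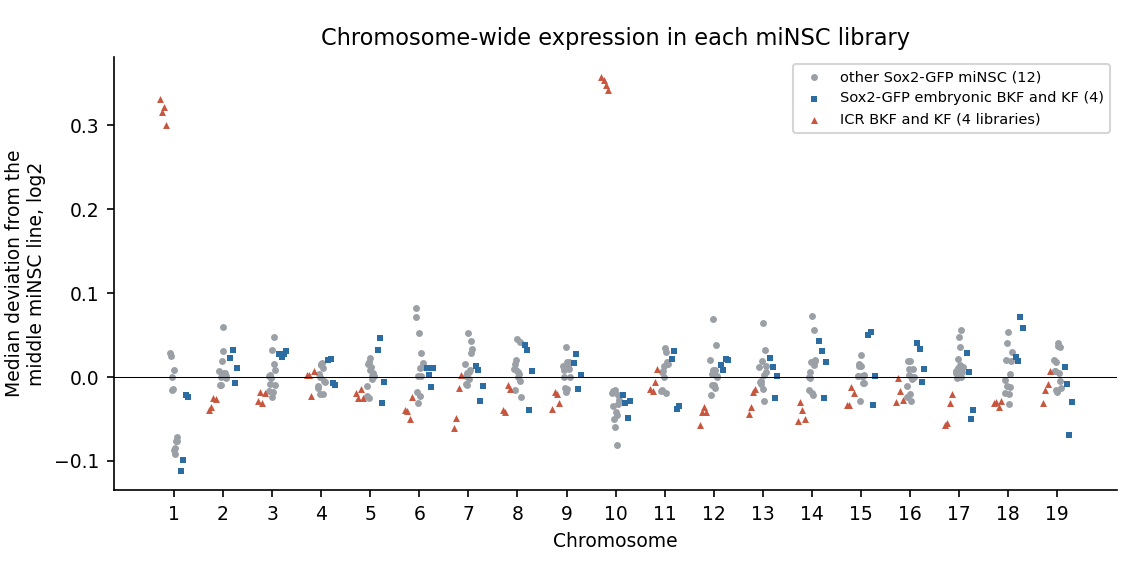
Median deviation of a chromosome's genes from the middle induced line (vertical axis, log2) for each of the 20 induced libraries, by autosome (horizontal axis). The 4 ICR libraries (triangles) lie at 0.30 to 0.36 on chromosomes 1 and 10 and between -0.06 and 0.01 elsewhere.

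These medians correspond to a 1.25-fold higher level on chromosome 1 and a 1.27-fold higher level on chromosome 10 in ICR than in the middle induced line. The shift was spread over the genes. On chromosome 1, 85.8% of the genes were higher in ICR in BKF and 72.5% in KF. On chromosome 10 these shares were 81.7% and 72.5%. Genes ordered along each chromosome and divided into 10 blocks of equal gene number gave positive median differences in every block of both chromosomes and in both cocktails. On chromosome 1 these differences ranged from 0.38 to 0.56 in BKF and from 0.20 to 0.60 in KF. On chromosome 10 they ranged from 0.22 to 0.66 in BKF and from 0.02 to 0.94 in KF. The ICR level of a block, relative to the middle induced line, ranged from 0.25 to 0.38 on chromosome 1. On chromosome 10 that level ranged from 0.13 in block 1 to 0.63 in block 6. DNA copy number was not measured, and its part in the shift was not tested.

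**Figure D3:**
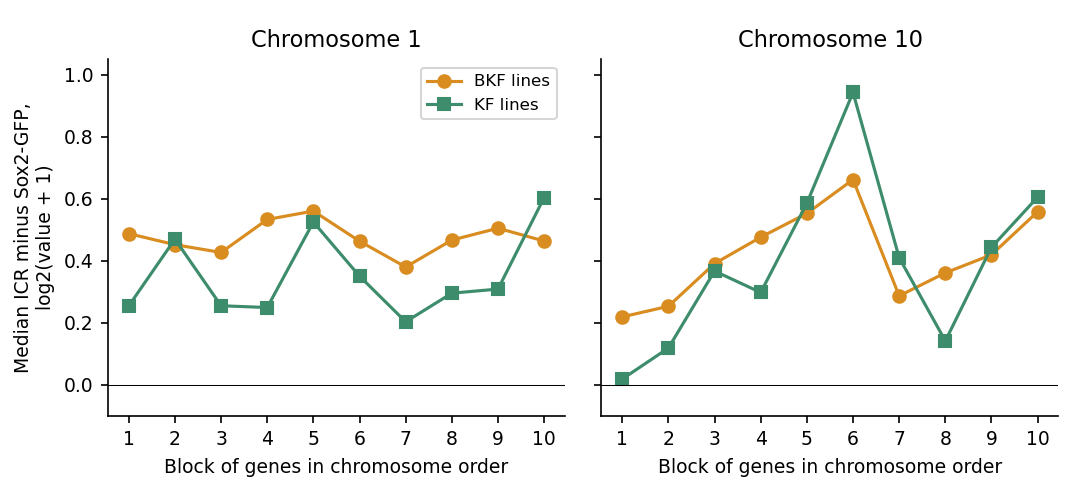
Median ICR minus Sox2-GFP difference (vertical axis, log2(value + 1)) in each of 10 blocks of genes in order along chromosomes 1 and 10 (horizontal axis), in the BKF lines (circles) and the KF lines (squares). All medians lie above 0, with the highest, 0.94, in block 6 of chromosome 10 in the KF lines.

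The shared calls were unevenly placed among the chromosomes. On chromosome 1, 18.9% of tested genes were in the stricter shared set and on chromosome 10, 16.4%, against 3.42 to 8.03% on the other 17. These 2 chromosomes held 310 shared higher genes and 14 shared lower ones. The other 17 held 289 higher and 566 lower. In all, 51.8% of the shared higher genes lay on the pair, which holds 11.8% of the tested genes. For each gene described below that lies on chromosome 1 or 10, the chromosome is named.

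Neural patterning genes were among those that differed most. Genes of the Hoxb cluster on chromosome 11, which set position along the trunk, were low in both ICR lines. Hoxb8 (ENSMUSG00000056648, chromosome 11, 96281905 to 96285315 of GRCm38) had values of 0 and 0 in ICR BKF and 1 and 1 in ICR KF. In Sox2-GFP it had 80 and 64 in BKF and 1737 and 1580 in KF. No ICR library came near a Sox2-GFP one, and the lowest of all 16 Sox2-GFP induced libraries was at 30. The averaged difference was -7.94 ± 0.18 on the log2(value + 1) scale (SE, n = 4 and 4 libraries), with a limma adjusted p of 1.21e-14.

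Its neighbours followed the same order at lower levels. Hoxb7 was listed at 0 in all 4 ICR libraries, at 18 and 13 in Sox2-GFP BKF and at 47 and 64 in Sox2-GFP KF (limma adjusted p = 4.53e-12). Hoxb6 was listed at 0 in ICR as well and at 4 to 30 in Sox2-GFP. Hoxb5 was lower on average (-2.06), but its BKF difference of -0.73 did not pass (limma adjusted p = 0.0521), and the cocktails differed (interaction adjusted p = 3.33e-05). The more anterior Hoxb2 and Hoxb4 went the other way in BKF, by 1.08 and 0.86. Among the 30 Hox genes tested, 4 were lower and 0 higher in each cocktail (the shares over all genes were 3.75% and 3.87%), and the median averaged difference was 0.00, that of all genes as well.

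Several genes of the dorsoventral axis were also lower. Nkx2-2, a ventral homeobox factor that also acts in the oligodendrocyte lineage, was listed at 0 in all 4 ICR libraries and at 12, 18, 10 and 13 in Sox2-GFP. Nkx6-1, another ventral factor, had 0 and 0 in ICR BKF against 6 and 4, and 5 and 8 in ICR KF against 49 and 70. Pax7, a dorsal factor, had 7 and 3 in ICR BKF against 142 and 190 in Sox2-GFP BKF. In KF, Pax7 was at 3 and 1 against 11 and 3, so that the groups touched. Ptch1, the hedgehog receptor and a target of the same pathway, was at 771 to 2118 in ICR and 2372 to 5539 in Sox2-GFP, but its BKF difference of -0.30 did not pass (limma adjusted p = 0.397). Of the 7 genes of the list tested, 3 were lower in each cocktail and 0 higher, against 3.75% and 3.87% of all genes, with a median averaged difference of -1.51. Ventral and dorsal factors were both in that count. On average with the same sign, 4 passed as lower and 1 as higher, against 14.6% and 14.3% of all genes. Another 2 were not called, and the gene passing as higher was Pax3, a dorsal factor on chromosome 1 (limma adjusted p = 0.0417). It was at 230 and 204 against 114 and 103 in BKF (a difference of 0.99) and at 0 and 15 against 0 and 0 in KF, so that the KF groups touched. Within KF alone 2 of the 7 were higher, Pax3 and Dbx2, and 4 were lower, against 23.5% and 21.9% of all genes.

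Gli2, a transcriptional effector of hedgehog signalling on chromosome 1, was higher in ICR. Its values were 972 and 840 in ICR BKF, 268 and 255 in ICR KF, 109 and 138 in Sox2-GFP BKF and 48 and 36 in Sox2-GFP KF. The 4 ICR libraries lay above all 24 Sox2-GFP libraries of the series, which reached 234. The difference of 2.75 ± 0.33 (SE, n = 4 and 4 libraries) was far above the median shift of chromosome 1, 0.42. Gli2 was singled out after its values were seen.

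Forebrain genes were mixed, with some higher in both cocktails. Nr2e1, a nuclear receptor of forebrain stem cells on chromosome 10, had 99 and 104 in ICR BKF against 32 and 30, and 56 and 50 in ICR KF against 10 and 13. Six3, an anterior homeobox factor, was at 18 to 60 in ICR and 10 to 25 in Sox2-GFP, overlapping between cocktails but not within one. Of 8 forebrain genes tested, these 2 were higher in each cocktail and 0 were lower in each, against 3.87% and 3.75% of all genes. Within a cocktail, BKF had 2 higher and 1 lower, against 10.3% and 9.95% of all genes. KF had 5 higher and 1 lower, against 23.5% and 21.9%. The lower one in BKF was Dlx2, with a difference of -1.33. En1, a midbrain and hindbrain factor on chromosome 1, differed by 3.22 in KF (limma adjusted p = 3.56e-07) but by 0.17 in BKF (0.776), and the cocktails differed in this (interaction adjusted p = 3.98e-05).

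Imprinted genes, which are expressed from 1 parental copy, were more often lower: 7 of 36 tested were lower in each cocktail, against 3.75% of all genes. Gnas, which encodes a G protein subunit, was the 1 higher in each, by 0.68 on average. The averaged call with the same sign was met by 8 lower and 5 higher genes of the 36, against 14.6% and 14.3% of all genes. Nnat (ENSMUSG00000067786, chromosome 2, 157560078 to 157562522), which encodes a small membrane proteolipid of developing brain, had the largest shared difference among the genes named by rule and above 0 on both sides. Its values were 1 and 1 in ICR BKF and 5 and 3 in ICR KF, against 2018 and 1928 in Sox2-GFP BKF and 4710 and 4840 in Sox2-GFP KF. The averaged difference was -9.94 ± 0.18 (SE, n = 4 and 4 libraries, limma adjusted p = 1.02e-15), nearly equal in BKF (-9.95) and KF (-9.93). Across all 16 Sox2-GFP induced libraries, however, Nnat ranged from 2 to 4840, so that low values were not particular to ICR.

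Dlk1, a Notch-related ligand, was listed at 0 in the 4 ICR libraries and at 28, 30, 15 and 16 in Sox2-GFP, and its lowest value over the 24 Sox2-GFP libraries was 2. Peg3, a zinc finger gene, was lower by 0.76 in BKF and by 1.72 in KF. Ndn, a growth suppressor, had 270 and 264 in ICR BKF against 529 and 456, and 153 and 148 in ICR KF against 714 and 798. Gatm, an enzyme of creatine synthesis, was at 0 and 0 in ICR BKF and 148 and 180 in ICR KF, against 647 to 738 in Sox2-GFP. The differences in Peg3 and Ndn were larger in KF than in BKF (interaction adjusted p = 0.00279 and 0.00181). The median of the 36 was -0.08, and the paternally expressed Mest was higher on average, by 1.10, though its BKF difference of 0.37 did not pass (limma adjusted p = 0.528).

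**Figure D4:**
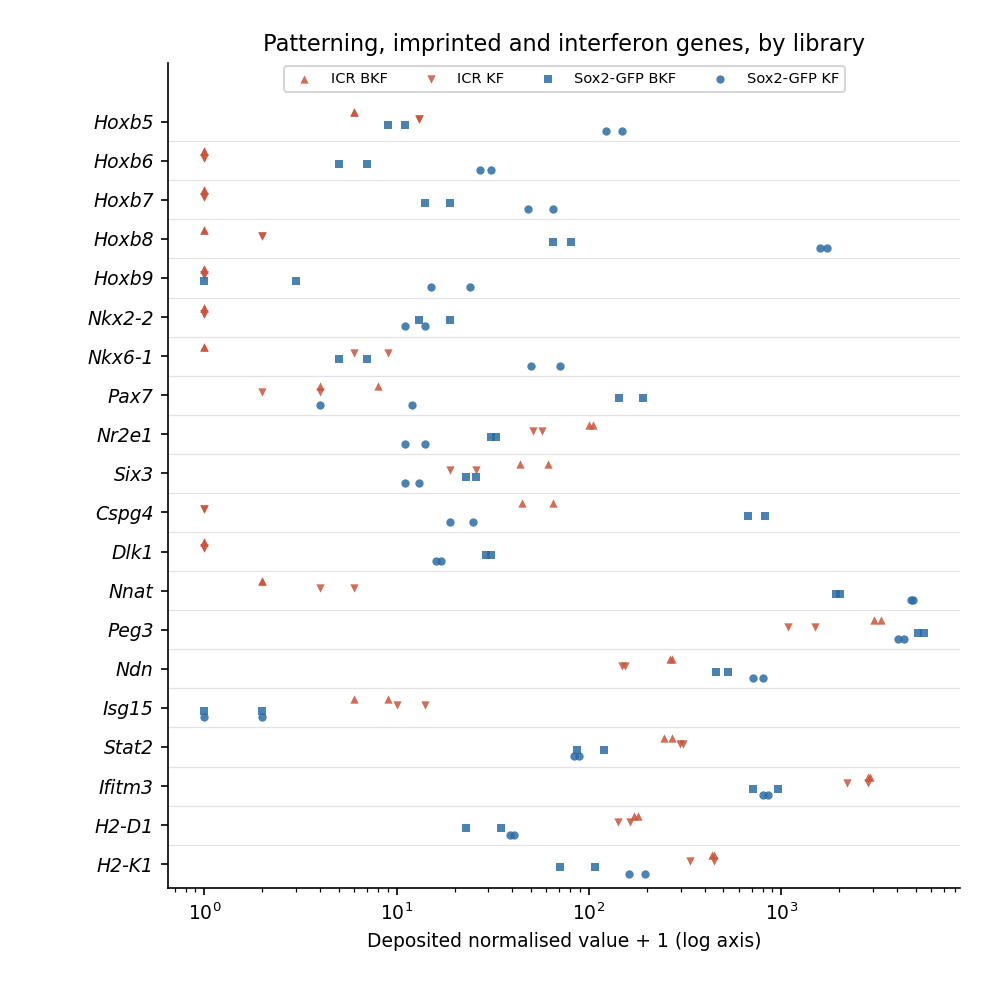
Deposited value plus 1 (horizontal log axis) of patterning, imprinted and interferon genes (rows) in the 4 ICR libraries (triangles pointing up for BKF and down for KF) and the 4 Sox2-GFP libraries (squares for BKF, circles for KF), 1 symbol per library. Hoxb6 to Hoxb9, Nkx2-2, Dlk1 and Nnat lie at the left edge or near it in ICR, and Stat2, Ifitm3, H2-D1 and H2-K1 lie to the right in ICR.

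Interferon response genes were more often higher in ICR on average, and within the cocktails mainly in BKF. Interferons bind cell surface receptors and activate transcription factors that bind a repeated GAAA element in the promoters of antiviral genes. Of 33 such genes tested, 12 passed as higher and 2 as lower on average with the same sign in both cocktails, against 14.3% and 14.6% of all genes. The 12 included Ifi202b and Ifi203 on chromosome 1 and Stat2 on chromosome 10. On these chromosomes 393 of 959 and 362 of 871 tested genes were called higher in the same way. Ifit2, also among the 12, differed by 4.51 in BKF but by only 0.03 in KF. In each cocktail separately 5 of the 33 were higher and 0 lower, against 3.87% and 3.75% of all genes. Within BKF 12 were higher and 1 lower, against 10.3% and 9.95% of all genes. Within KF 8 were higher and 4 lower, against 23.5% and 21.9%, so the share higher in KF was near that of all genes. The median averaged difference was 0.60, with 0.37 in BKF and 0.19 in KF, where the medians of all genes were 0.00, -0.03 and 0.02.

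The promoters of 3 of the 5 genes higher in each cocktail are shown because they differ in how the element is arranged. They cover 250 bases before to 50 after the annotated start, 5′ to 3′ on the gene's strand, from RefSeq on GRCm38.p6. Capitals mark matches to 2 copies of GAAA with any 2 bases between them or, read on the opposite strand, 2 copies of TTTC spaced likewise. Isg15 lies at chr4:156200769-156201068 on the minus strand, Ifitm3 at chr7:141010695-141010994 on the minus strand, and Gbp3 at chr3:142559794-142560093 on the plus strand.
Isg15: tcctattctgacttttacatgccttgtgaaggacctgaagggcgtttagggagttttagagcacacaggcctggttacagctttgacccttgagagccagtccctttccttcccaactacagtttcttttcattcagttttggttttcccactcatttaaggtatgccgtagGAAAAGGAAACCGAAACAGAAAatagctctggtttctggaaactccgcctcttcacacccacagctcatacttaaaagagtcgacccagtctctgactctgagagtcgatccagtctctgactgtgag
Ifitm3: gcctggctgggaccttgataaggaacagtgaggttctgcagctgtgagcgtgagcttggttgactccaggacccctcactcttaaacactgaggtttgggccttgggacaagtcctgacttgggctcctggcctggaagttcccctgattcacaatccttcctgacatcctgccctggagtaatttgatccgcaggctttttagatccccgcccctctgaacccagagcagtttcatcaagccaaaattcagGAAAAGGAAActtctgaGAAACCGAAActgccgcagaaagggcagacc
Gbp3: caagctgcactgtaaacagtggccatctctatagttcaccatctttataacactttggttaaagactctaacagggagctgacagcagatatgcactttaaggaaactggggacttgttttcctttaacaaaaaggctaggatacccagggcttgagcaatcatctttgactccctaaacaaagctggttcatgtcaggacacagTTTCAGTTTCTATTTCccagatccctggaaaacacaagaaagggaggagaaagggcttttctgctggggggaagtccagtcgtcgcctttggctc
Isg15 had 3 overlapping matches, Ifitm3 had 2 separate ones, and Gbp3 had 2 overlapping ones on the opposite strand. Gbp3 has another promoter in the table, which held none. Such a match is a description of letters and no evidence of binding.

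Searched on both strands with overlaps allowed, the element occurred in 1131 of 32851 promoters of that length (3.44%). Of the 33 genes, 29 had a promoter in the table and 20 held a match in at least 1. A match was held by 6 of the 9 genes called higher, by both of the 2 called lower, and by 12 of the 18 not called.

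Isg15, the ubiquitin-like modifier, was low in all 8 libraries, at 5, 8, 9 and 13 in ICR and 0, 1, 1 and 0 in Sox2-GFP. Ifitm3, a membrane protein that blocks virus entry, had 2899, 2834, 2191 and 2835 in ICR and 958, 714, 855 and 802 in Sox2-GFP. Gbp3, a guanylate-binding protein, had 132, 144, 132 and 114 against 49, 50, 71 and 54. In each of these genes the ICR libraries lay above all 16 Sox2-GFP induced libraries. The averaged differences were 2.72 ± 0.42, 1.69 ± 0.26 and 1.22 ± 0.18 (SE, n = 4 and 4 libraries).

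Stat2, a transcription factor of the pathway on chromosome 10, was higher as well. It had 269, 244, 295 and 308 in ICR against 119, 86, 83 and 88 in Sox2-GFP, a difference of 1.57 ± 0.22 against a chromosome shift of 0.42. Usp18, which removes ISG15 from proteins, was at 72 to 82 in ICR, 0 and 0 in Sox2-GFP BKF and 25 and 14 in Sox2-GFP KF, and passed in BKF but not in KF (limma adjusted p = 0.180). Whether its cocktails differed was not shown (interaction adjusted p = 0.0517).

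Some interferon genes did not pass on average or varied within a line. Ifit1 had 87, 56, 107 and 112 in ICR, 0 and 0 in Sox2-GFP BKF and 68 and 62 in Sox2-GFP KF, so that the sides overlapped (limma adjusted p = 0.0685). Ifi202b, on chromosome 1, had 0 and 402 in the ICR BKF libraries, 432 and 552 in ICR KF and 0 in all 4 Sox2-GFP libraries. Trim12a went the other way, at 0 in all ICR libraries and at 0, 89, 56 and 92 in Sox2-GFP. Macrophage markers summed to 10 to 123 in ICR and 15 to 21 in Sox2-GFP over 6 genes, with C1qa, C1qb and Tyrobp at 0 in all 8 libraries.

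Class I antigen presentation, a known target of interferon, did not move as a block: 3 of 21 genes were higher in each cocktail and 3 lower, against 3.87% and 3.75% of all genes. The classical heavy chains were higher. H2-D1 had 178, 171, 140 and 162 in ICR against 34, 22, 38 and 40, and H2-K1 had 434, 446, 336 and 448 against 106, 70, 194 and 161. The immunoproteasome subunit Psmb9 was at 13 to 20 against 1 to 6. B2m, the light chain that the heavy chains need, was lower, at 835 to 1030 in ICR and 1172 to 2078 in Sox2-GFP. The non-classical H2-T22 and H2-T24 were lower too, by 1.36 and 4.74 on average. These genes are highly variable between mouse strains and share sequence: 26.9% of the 31-base words of H2-D1 transcripts, 22.8% of those of H2-K1 and 67.4% of those of H2-T22 also occur in another annotated gene, so reads could be split between copies.

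Of 10 genes of the oligodendrocyte lineage tested, 2 were lower in each cocktail and 0 higher, against 3.75% and 3.87% of all genes. On average with the same sign, 4 passed as lower and 1 as higher, against 14.6% and 14.3% of all genes. The gene passing as higher was the proteoglycan gene Cspg5, by 0.60 (limma adjusted p = 0.0458). Cspg4, the NG2 proteoglycan of oligodendrocyte progenitors, had 44 and 64 in ICR BKF against 674 and 826 in Sox2-GFP BKF, and 0 and 0 in ICR KF against 24 and 18. The ICR BKF values lay above the Sox2-GFP KF ones, so the strains separated only within a cocktail. Gpr17, a receptor of early oligodendrocytes, passed in KF, at 0 and 0 against 136 and 156, but not in BKF (interaction adjusted p = 0.000159). Olig2, the lineage's transcription factor, was at 11652 to 20143 in ICR and 6702 to 17984 in Sox2-GFP and did not pass on average (limma adjusted p = 0.0615).

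Many glycolysis and hypoxia genes were lower on average, mainly through BKF. Of 24, 12 passed as lower and 2 as higher, against 14.6% and 14.3% of all genes. Another 10 were not called, and the median was -0.59 (BKF -0.91, KF -0.28). Within BKF 9 were lower and 2 higher, against 9.95% and 10.3% of all genes. Within KF 7 were lower and 3 higher, against 21.9% and 23.5%. The list summed to 144501 and 143809 in ICR BKF against 286027 and 291312. In KF the sums were 173401 and 173536 in ICR against 163525 and 168261. Ndrg1, a stress-responsive gene, had 32, 34, 32 and 32 in ICR, 142 and 114 in Sox2-GFP BKF and 837 and 771 in Sox2-GFP KF. Slc2a3, a glucose transporter, had 130, 116, 271 and 234 against 649, 683, 830 and 855. Pdk1, a kinase that restrains pyruvate use by mitochondria, had 734 to 918 against 2567 to 2876. In all 3 genes the sides did not overlap.

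The neural isoforms of glycolytic enzymes went the other way. Aldoc, the brain aldolase, had 21805, 20138, 20138 and 17981 in ICR and 6859, 6986, 11648 and 15156 in Sox2-GFP, and ICR lay above all 24 Sox2-GFP libraries. Eno2, the neuronal enolase, had 46, 37, 52 and 56 against 4, 8, 10 and 12. In each cocktail separately the list had 4 lower and 2 higher genes, against 3.75% and 3.87% of all genes. The higher genes were Aldoc and Eno2. Eno1, the common enolase, was lower in BKF, with 16122 in both ICR libraries and 92914 in both Sox2-GFP ones. The latter is the highest value in the table, which understates such differences.

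Signalling genes of the Wnt, BMP and Notch pathways had 1 of 34 higher and 2 lower in each cocktail, near the 3.87% and 3.75% of all genes. The 3 were Sfrp2, Bmp7 and Id2. Sfrp2, a secreted Wnt modulator, had 187 and 154 in ICR BKF against 36 and 40, and 68 and 90 in ICR KF against 10 and 7. Bmp7, a BMP ligand, had 12 and 13 in ICR BKF against 738 and 830, and 80 and 56 in ICR KF against 147 and 177. Id2, a BMP-responsive inhibitor of differentiation, had 168 and 193 against 1354 and 1190 in BKF, and 751 and 883 against 3254 and 2965 in KF. In each of these genes the sides did not overlap.

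Genes of the list of reprogramming factors and their relatives differed in both directions, and of these the labels spell out only Sox17, as eSox17FNV. Of 7 tested, 2 passed as higher and 3 as lower on average with the same sign, against 14.3% and 14.6% of all genes. In each cocktail 2 were lower and 0 higher, against 3.75% and 3.87%. Sox17, on chromosome 1, was listed at 0 in all 4 ICR libraries, at 12 and 6 in Sox2-GFP BKF and at 115 and 166 in Sox2-GFP KF. Klf4 had 24 and 28 in ICR BKF against 342 and 334, and 708 and 662 in ICR KF against 3366 and 3398. Both were lower in each cocktail, although Klf4 in ICR KF lay above Sox2-GFP BKF. The deposited values do not tell transcripts of the genome from those of the lentiviruses. Sox2, marked by the reporter in 1 of the strains, was higher in ICR in BKF, at 2734 and 2784 against 1213 and 1142, but overlapped in KF, at 2178 and 2624 against 2150 and 2372 (limma adjusted p = 0.612, interaction adjusted p = 4.00e-05). Myc was lower on average by 0.93, and its KF difference of -0.64 did not pass (limma adjusted p = 0.0944).

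The largest shared differences were mostly of genes outside these lists. Ltbr (ENSMUSG00000030339, chromosome 6, 125306571 to 125313885), the lymphotoxin beta receptor, had 423, 408, 426 and 488 in ICR and 2, 4, 3 and 1 in Sox2-GFP. The sides were far apart and the ICR values nearly equal in both cocktails. The difference was 7.04 ± 0.28 (SE, n = 4 and 4 libraries, limma adjusted p = 2.14e-11), and no 31-base word of its transcripts occurs in another gene. The other Sox2-GFP induced lines reached 70 and the fibroblasts or neural stem cells 2433.

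Matrix and cytoskeletal genes were found in both directions. Fbln2, the matrix protein fibulin-2, had 254 and 196 in ICR BKF and 108 and 87 in ICR KF, against 4004 and 4356 in Sox2-GFP BKF and 10340 and 9950 in Sox2-GFP KF. Tagln2, an actin-binding protein on chromosome 1, was at 1, 1, 0 and 0 in ICR and at 296, 274, 960 and 1060 in Sox2-GFP, below all 24 Sox2-GFP libraries, whose lowest value was 2. Cdh20, a cadherin on chromosome 1, was at 6, 5, 0 and 6 against 1560, 1625, 1252 and 1383. Both genes were thus low on a chromosome whose genes were mostly higher.

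Mfap4, a microfibril protein, was higher, at 76 and 67 in ICR BKF and 2264 and 2106 in ICR KF, against 5, 11, 28 and 26 in Sox2-GFP. Csrp1, an actin-associated protein on chromosome 1, was at 340, 426, 52 and 66 against 6, 8, 10 and 10. Fkbp10, a chaperone of collagen, was at 398, 414, 969 and 966 against 34, 40, 47 and 64. Loxl1, a collagen and elastin crosslinker, was at 16, 10, 121 and 113 against 1, 1, 0 and 0. It was the only 1 of 20 fibroblast genes tested to be higher in each cocktail, and 4 of the 20 passed in each with opposite signs, against 3.87% and 5.16% of all genes. Within KF 10 of the 20 were higher in ICR and 3 lower, against 23.5% and 21.9% of all genes, with a median of 1.34. Within BKF 1 was higher and 5 lower, against 10.3% and 9.95%, with a median of -0.04. The summed fibroblast markers reached 5950 in ICR KF, and their part in these differences was not tested.

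Mfsd2a, a lipid transporter, had 1232 and 1298 in ICR BKF and 148 and 138 in ICR KF, against 10, 8, 25 and 17. Sirt6, a deacylase on chromosome 10, had 205, 186, 143 and 126 against 55, 84, 4 and 4. The Sirt6 difference was 3.13, whereas against the other 6 Sox2-GFP induced groups it was 0.37 and did not pass (limma adjusted p = 0.0644). Among the lower genes, Hfm1, a meiotic helicase, was at 434 in the second ICR BKF library and at 1 in the other 3, against 582 to 911. The remaining genes of the set, Ccbe1 higher and Eps8l1, Zfp612 and Aldh1a7 lower, had averaged differences of 3.04, -6.10, -5.97 and -5.46.

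**Figure D5:**
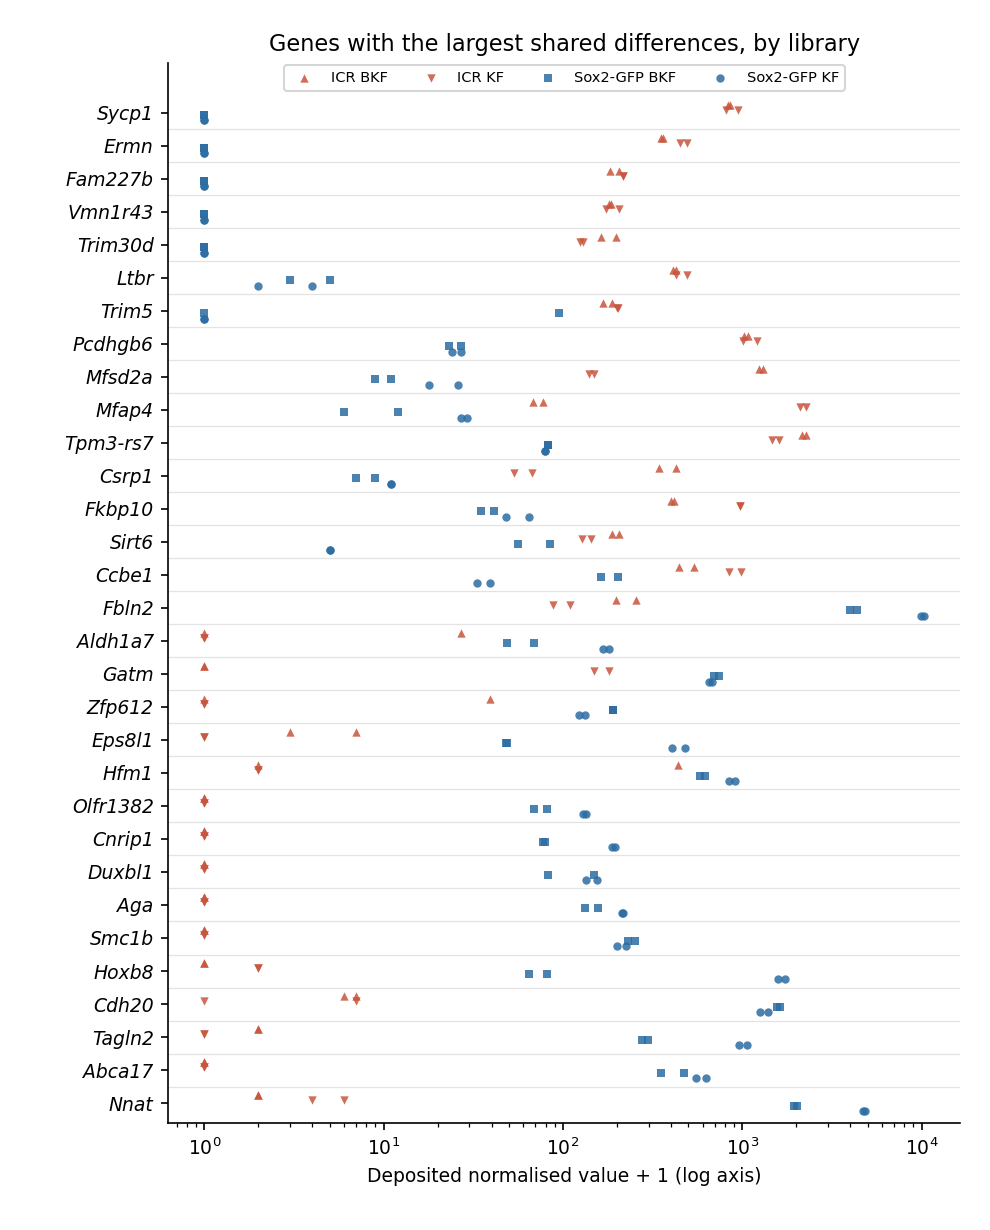
Deposited value plus 1 (horizontal log axis) of the 31 genes with the largest shared differences (rows), 1 symbol per library, with ICR BKF and KF as triangles pointing up and down and Sox2-GFP BKF and KF as squares and circles. The ICR and Sox2-GFP libraries do not overlap in any row, since the choice of genes required it, and a symbol at 1 stands for a value listed as 0.

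Several genes were listed at 0 in all libraries of 1 side. Sycp1, a protein of the meiotic synaptonemal complex, was at 855, 826, 950 and 810 in ICR and at 0 in the 4 Sox2-GFP libraries. Ermn (353, 360, 449 and 488), Fam227b (182, 204, 214 and 215), Vmn1r43 (179, 184, 204 and 172) and Trim30d (196, 162, 124 and 128) had the same pattern. Trim30d was listed at 0 in all 16 Sox2-GFP induced libraries, while Ermn reached 581 in some of them. In the opposite direction, Abca17, Smc1b, Aga, Duxbl1, Cnrip1 and Olfr1382 were at 0 in ICR and at 350 to 630, 199 to 252, 132 to 216, 81 to 154, 76 to 195 and 68 to 134 in Sox2-GFP. Aga encodes a lysosomal enzyme and Smc1b a meiotic cohesin. Each of these 6 genes was listed at 0 in at least 1 Sox2-GFP library of the series too. A listed 0 shows only that no value was assigned.

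Many of these genes have close copies. Trim5, higher at 166, 186, 199 and 201 against 0, 94, 0 and 0, shares 53.2% of its 31-base words with other genes. Pcdhgb6, a clustered protocadherin, was at 1074, 1018, 1212 and 1013 against 22, 26, 23 and 26 and shares 57.9%. Duxbl1 shares 96.1% and Tpm3-rs7, a copy of a tropomyosin gene, 78.6%. Tpm3-rs7 had 2150, 2250, 1464 and 1608 in ICR against 81, 82, 78 and 78, and lay above all 24 Sox2-GFP libraries, whose highest value was 158. These values are uncertain because the counting of shared reads is not given in the sources used here.

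The 4 ICR libraries lay outside the range of all 24 Sox2-GFP libraries, fibroblasts and neural stem cells included, for 319 genes (2.06%), of which 203 were in the stricter shared set. They lay outside the 16 Sox2-GFP induced libraries for 902 genes (5.83%) and outside the 4 of the comparison for 3131 (20.2%). Some abundant genes were among the 203, and those discussed next, except Gsr and Etv4, were chosen after their values were seen. Rps18, a ribosomal protein gene, had 133, 307, 358 and 434 in ICR, while no Sox2-GFP library was below 3733. Rps3a1, another, had 8657, 9430, 1494 and 1872 against at least 9706. Kpna2, an importin, had 136 to 150 against at least 520, and Ahcy, an enzyme of the methylation cycle, had 14 to 21 against at least 150.

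In these 4 genes, 27.9% (Rps18), 76.9% (Rps3a1), 66.0% (Kpna2) and 71.4% (Ahcy) of the 31-base words occur in other genes. Among the genes that share the most words with them, 4 that were tested were higher in ICR. Gm10260, which shares words with Rps18, was at 5950, 6031, 5740 and 6466 in ICR and at 0 to 6 in the 24 Sox2-GFP libraries. Gm11361, likewise, was at 1218 to 1770 in ICR and at 1 to 2 in Sox2-GFP. Gm10184, which shares words with Kpna2, was at 8216, 8216, 5950 and 6859 in ICR and at most 3708 in Sox2-GFP. Gm4737, which shares words with Ahcy, was at 1781 to 2264 in ICR and at most 1331 in Sox2-GFP. How reads were divided between gene and copy was not tested, so the levels of these genes are uncertain.

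Other genes outside the range of all 24 had smaller shares of such words. Daam2, a Wnt and actin regulator, had 9, 13, 6 and 10 in ICR against 154, 196, 367 and 358 (1.16% shared). Man2b2, a lysosomal mannosidase, had 28, 35, 42 and 24 against 166, 218, 432 and 440, with no shared word. Prelp, a matrix proteoglycan on chromosome 1, had 36, 36, 56 and 47 against 186, 245, 850 and 751 (9.0% shared). Cped1 had 0, 0, 30 and 20 against 94, 98, 124 and 132 (13.4% shared), and Ddx19b, an RNA helicase, had 0, 9, 62 and 44 against 290, 280, 248 and 253 (14.4% shared). Gsr, the glutathione reductase, was higher at 2048, 2250, 1763 and 1902 against 984, 956, 394 and 434, and Etv4, an effector of FGF signalling, was higher at 1511, 1580, 1874 and 2001 against 939, 930, 108 and 116.

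Against the 6 Sox2-GFP induced groups not used above, which differ from the ICR lines in cocktail and mostly in donor tissue and age, 6155 genes passed (39.8%). This comparison shares the ICR libraries with the others. Of the 1179 genes of the stricter set, 1103 passed there in the same direction and 1 in the opposite one. Nnat differed by -3.68 there against -9.94 in the embryonic lines, Hoxb8 by -8.47 against -7.94, and Ltbr by 5.87 against 7.04.

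Other genes passed in 1 cocktail and not in the other, or in both with opposite signs, and the test of the difference of differences passed for 5051 genes (32.6%). DNA replication genes differed little in BKF, where limma passed 0 of 32 (0 also at an unadjusted p under 0.05), against 20.3% of all genes, and the median was 0.06. In KF 30 of 32 were higher in ICR, against 23.5% of all genes, with a median of 1.85, and 20 of the 32 passed the interaction. Mcm3, a subunit of the replicative helicase on chromosome 1, had 3088 and 3111 in ICR BKF, 2130 and 1994 in Sox2-GFP BKF, 3303 and 3476 in ICR KF and 282 and 298 in Sox2-GFP KF. Only the last line was low. Of 26 mitosis genes, 18 were higher in KF and 0 in BKF, but limma passed 0 for the interaction (9 at an unadjusted p under 0.05), so a difference between the cocktails was not shown for them. Cdk1, the mitotic kinase on chromosome 10, had 3666, 3708, 3578 and 4170 in ICR, 2816 and 2658 in Sox2-GFP BKF and 415 and 378 in Sox2-GFP KF.

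Immediate early genes, which respond to stimulation within minutes, were lower in ICR in KF for 14 of 19 and higher for 3. The shares of all genes were 21.9% and 23.5%, and the median of the 19 was -4.68. In BKF 2 were lower and 2 higher, against 9.95% and 10.3% of all genes, with a median of -0.12, and 16 of the 19 passed the interaction. Fos had 5602 and 5430 in ICR BKF, 6986 and 6701 in Sox2-GFP BKF, 488 and 485 in ICR KF and 42158 in both Sox2-GFP KF libraries. Arc, an activity-regulated gene, was lower in each cocktail, at 26, 26, 32 and 21 against 254, 362, 1142 and 1259.

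Some astrocyte and smooth muscle genes passed in each cocktail with opposite signs. Gfap, the astrocyte filament, had 1572 and 1594 in ICR BKF against 248 and 206, and 553 and 608 in ICR KF against 8216 and 8417. Apoe, a lipid carrier, had 4005 and 3772 against 830 and 823 in BKF, and 1910 and 2372 against 9708 and 16127 in KF. Of 14 astrocyte genes, 4 passed in each cocktail with opposite signs, as did 3 of 8 smooth muscle genes, Acta2 among them, against 5.16% of all genes. Another 2 astrocyte genes passed with the same sign in each, 1 higher and 1 lower, against 3.87% and 3.75% of all genes. Averages over the cocktails hide such genes, and Gfap (averaged difference -0.52) and Apoe (-0.16) did not pass there.

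The largest reversals were of single genes. Calca, the gene of calcitonin and CGRP, was at 0 and 2 in ICR BKF and 1168 and 972 in Sox2-GFP BKF, and at 2264 and 2601 in ICR KF and 3 and 1 in Sox2-GFP KF. Zfp982, a zinc finger gene, was at 0 and 0 against 466 and 522 in BKF, and at 360 and 342 against 0 and 0 in KF. Egr4, an immediate early factor, was at 266 and 264 against 70 and 70 in BKF, and at 3 and 2 against 6861 and 6988 in KF. Hexa, a lysosomal enzyme, was at 392 and 332 against 54 and 30 in BKF, and at 0 and 0 against 552 and 572 in KF. Fuca2, a fucosidase on chromosome 10, was at 216 and 224 against 44 and 44, and then at 0 and 0 against 302 and 324. In each gene a high and a low line occurred within both strains.

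Protocadherins of the clusters on chromosome 18 are chosen at random from cell to cell in neurons. Of 56 tested, 4 were lower and 1 higher in each cocktail, and 6 passed in each with opposite signs, against 3.75%, 3.87% and 5.16% of all genes. Pcdhgb1 had 9, 15, 4 and 4 in ICR against 59, 100, 70 and 63. Pcdhgb7 had 91 and 76 in ICR BKF against 196 and 186, but 1750 and 1418 in ICR KF against 26 and 28. Pcdhga7 was at 0 and 5 against 526 and 672 in BKF, and at 46 and 47 against 20 and 6 in KF.

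Sex-linked genes were left out of all counts. The Y-linked gene Ddx3y was at 1960 to 2214 in ICR, 826 and 808 in Sox2-GFP BKF and 3552 and 3528 in Sox2-GFP KF, and Xist was at 154 to 222 in all 8. Library totals of the 8 were nearly equal, from 15565351 to 15569037, as normalisation leaves them, and 9.15 to 10.5% of the table's genes were at 0 in a library.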

How the data were processed

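The authors deposited 1 whole-number score per gene and library for 17295 genes and 28 libraries of 14 groups. RSEM, Bowtie2 2.0 and mm10 are named without role or order, per the submitters' processing notes. How the scores were normalised is not given in the sources used here. Totals are nearly equal and 10 genes stand at 92914 in every library, so depth, and the precision it gives, is unknown. All gene identifiers were found in GENCODE M21 (GRCm38), the source of coordinates, and 18 genes share a symbol with another.

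Values were changed to log2(value + 1), a scale that understates the change of low genes. Genes with a mean of at least 10 were tested in limma 3.58.1 (R 4.3.3), with 1 term per group over all 14 groups, a variance trend, and Benjamini-Hochberg adjustment over all 16275 genes. Averaged and within-cocktail differences and their interaction were contrasts of group means. Genes on X and Y (796 tested) were then left out. Chromosome medians and gene lists were described without a test. The fit was tested on simulated data.

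The comparison, the lists and the tests were chosen with earlier results of these data known. Genes named by rule passed on average and in each cocktail, with the same sign and no overlap of libraries, a mean of at least 100 on 1 side, and no predicted, unnamed or pseudogene symbol. The 10 largest rises and falls were taken, and up to 6 per direction listed at 0 on 1 side. To these were added up to 5 members of each list by adjusted p, all reprogramming and sex-linked check genes, and 6 interaction genes. Other genes named, among them further list members, were chosen after their values were seen.

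Same-numbered libraries were not paired: their deviations from the group means had correlations of -0.03 to 0.02 between groups. Alternatives tried were another pseudocount, filters, 2 scalings, a fit over the 4 groups, a robust variance prior, a replicate block, line means as samples and leaving out each library. Leaving out or centring chromosomes and other level filters for the chromosome medians were chosen after seeing the data. Tables and figures were made with pandas 2.3.3, numpy 2.4.6 and matplotlib 3.10.9 under Python 3.11.15. Some genes that the naming rule covers are not reported here.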

Additional observations from a re-analysis of the deposited data

Results flagged for a closer look

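In 14 of 270 sets of 4 libraries of 1 strain examined, 1 library lay far from the other 3 relative to the range of the 4. About 1 in 20 sets is reached by chance when all 4 values are draws from 1 population. Here each set joins a BKF and a KF line, so that rate need not hold. Within ICR these were the second BKF library for Ndrg1 (34), Hfm1 (434) and mt-Co3 (24590), and the first BKF library for Aldh1a7 (26), Prim2 (792) and Zfp612 (38). The first KF library of ICR was apart for H2-K1 (336), Ifitm3 (2191), Cdh20 (0), mt-Nd2 (16127) and mt-Nd5 (17984). Within Sox2-GFP it was the second BKF library for Trim5 (94) and mt-Co3 (21808) and the first for Stat2 (119). For Ndrg1 the other 3 libraries all stood at 32, so the gap is small. For mt-Nd2 and mt-Nd5 the value of the library apart also occurs among the Sox2-GFP libraries.

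The strain difference itself differed between the cocktails, by the limma interaction test, for 5051 genes. The largest differences of differences (BKF minus KF, log2) with called, opposite signs in the cocktails were 12.27 for Hexa, -19.01 for Calca, -17.41 for Zfp982, 10.59 for Fuca2, 12.87 for Egr4 and -9.90 for Pcdhga7. Among the 169 other genes named by rule, 94 passed the same test.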

How the results depend on the processing

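With each line's mean as 1 sample, 0 genes passed on average, 0 with the same sign, 0 higher and 0 lower, and the 155 genes named and called lost their call. That fit had little to estimate the spread from, so the loss says little about single genes. The within-cocktail and interaction tests could not be fitted. With the fit over the 4 groups alone, 1920 genes passed in each cocktail with the same sign (967 higher, 953 lower) and 1232 with opposite signs. Without chromosomes 1 and 10, 1459 genes were higher and 2200 lower with the same sign, and 289 were higher and 566 lower in each cocktail. Centring each chromosome gave 385 higher and 617 lower in each cocktail. That set held 599 higher and 580 lower genes in the main fit, so its balance shifted to lower genes. The mean ICR level, 0.32 on chromosome 1 and 0.35 on chromosome 10, was 0.25 and 0.25 over all tested genes and 0.34 and 0.42 over genes with a mean of at least 1000.

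Leaving out 1 library gave 5012 to 5412 averaged calls, 3801 to 4127 with the same sign (1868 to 2025 higher, 1917 to 2102 lower), 1906 to 3129 within BKF, 5540 to 6943 within KF, 755 to 1066 in each cocktail with the same sign (379 to 530 higher, 374 to 536 lower), 482 to 674 with opposite signs and 4096 to 4365 interactions. The lone library was assumed to vary like the other groups. The counts within BKF, in each cocktail and with opposite signs fell most without ICR BKF library 1 (1945, 764 and 496), ICR BKF library 2 (1906, 755 and 482) and Sox2-GFP BKF library 2 (1939, 765 and 491). Of the 155 called genes, 11 lost the call without 1 library, among them Pax3, Cdk1, Pou3f1 and Pou3f2. No averaged difference of a called named gene, and neither of the chromosome medians, reversed its direction under an alternative. List medians and within-cocktail differences of single genes were not compared between the alternatives. With the replicate block, which the data gave no reason to use as a pairing, 4473 genes passed on average with the same sign, 1184 in each cocktail and 5013 for the interaction.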
